A study of Mus musculus with 16 samples.

Results

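The interaction of genotype and surgery in neonatal mouse ventricles is the response to myocardial infarction in Chrna7 knockout hearts minus the response in wild-type hearts. All 16 RNA-seq samples of the study enter it, because it is the contrast (KO MI minus KO sham) minus (WT MI minus WT sham). The samples form 4 groups of 4. KO MI and KO sham are ventricles of Chrna7 knockout neonates (the Jax line named in the labels) after infarction by ligation and after sham surgery, and WT MI and WT sham are ventricles of wild-type neonates after the same operations. All samples are polyadenylated RNA of the full ventricles, taken above and below the ligation, so injured and distant muscle were pooled in each. The labels give no age in days, sex, litter, background strain, time after surgery or statement that samples come from different animals. The spread behind every p-value is thus that of these samples alone and may be technical.

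Chrna7 encodes the alpha 7 nicotinic acetylcholine receptor, a cation channel opened by acetylcholine. On macrophages it carries the cholinergic anti-inflammatory reflex, in which the vagus nerve dampens the release of cytokines. The newborn mouse heart can replace lost muscle for a short time after birth by division of its own cardiomyocytes, a process that needs macrophages and nerve signals, and the outer layer of the heart, the epicardium, is reactivated by injury. A knockout in the germ line lacks the gene in all cells of the body from conception.

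The libraries held 10711442 to 17223580 gene counts. Cardiomyocyte genes were high in every sample (Myh6, the fast heart myosin, 13345 to 38780 CPM), where CPM is the gene's read count scaled to the library total after TMM (trimmed mean of M-values) normalization. Genes of neighbouring tissues varied between samples. The lung surfactant gene Sftpc stood at 16.03 to 237 CPM in KO MI and 18.3 to 24.5 CPM in KO sham, against 1.01 to 101 CPM in WT MI and 0 to 33.0 CPM in WT sham. The atrial index, the mean log2 CPM of the atrial muscle genes Myl7, Myl4 and Sln, lay at 5.41 to 7.10 in KO MI and 4.71 to 5.90 in KO sham, against 5.97 to 7.77 in WT MI and 6.35 to 8.39 in WT sham, so the lowest values were in KO sham and the highest in WT sham. Alb, the liver albumin gene, was at 0 in 12 of the 16 samples and below 3 CPM in the others. In KO MI, KO sham and WT sham, 1 library each had almost no Y-linked reads. Chrna7 itself had 0 to 4 reads per sample (11 in all of KO MI, 3 in KO sham, 3 in WT MI and 4 in WT sham), too few to be tested or to check the labels.

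The response to infarction differed between the genotypes for 368 of 13412 genes tested (2.74%), at an adjusted p under 0.05 in edgeR's quasi-likelihood test. The interaction lay above 0, meaning a higher response in knockout, for 221 genes (1.65%) and below 0 for 147 (1.1%). At an unadjusted p under 0.05 there were 2428 genes, and the median log2 interaction over all genes tested was 0.002. The same contrast gave 628 genes with DESeq2, of which 367 were among the 368, and 1524 with limma voom, of which 367 were. The count moved between 178 and 817 when single libraries were left out, and 151 of the 368 genes (107 above 0, 44 below) were called in all 16 of these fits. Of the 86 called genes described below, 49 were not called with the atrial index as covariate and 26 not without the 3 libraries low in Y-linked reads. The total fell to 193 without KO MI 2, 178, 194, 218 and 193 without KO sham 1 to 4, 231, 234 and 213 without WT MI 1, 3 and 4, and 205 without WT sham 3, and it stood at 609 without KO MI 4 and 817 without WT MI 2.

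For most called genes the sham groups, not the infarcted ones, lay far apart. The difference between KO sham and WT sham had the opposite sign to the interaction for all 368 genes, and was larger in size than the difference between KO MI and WT MI for 353. Both infarct means lay between the means of the sham groups for 249 genes (67.7%), against 25.1% of all genes tested. The farthest group was KO sham for 242 called genes (65.8%; 46.8% of all genes tested) and WT sham for 112 (30.4%; 23.9%), while KO MI and WT MI were farthest for 7 each. All 4 KO sham samples lay outside the range of the 12 others for 205 called genes, below it for 131 and above it for 74, which is 55.7% against 9.54% of all genes tested. All 4 WT sham samples did so for 72 called genes, above the others for 44 and below for 28, against 1.62% of all genes tested. These shares describe the called genes and carry no test, since the contrast itself favours genes whose sham groups differ.

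**Figure D1:**
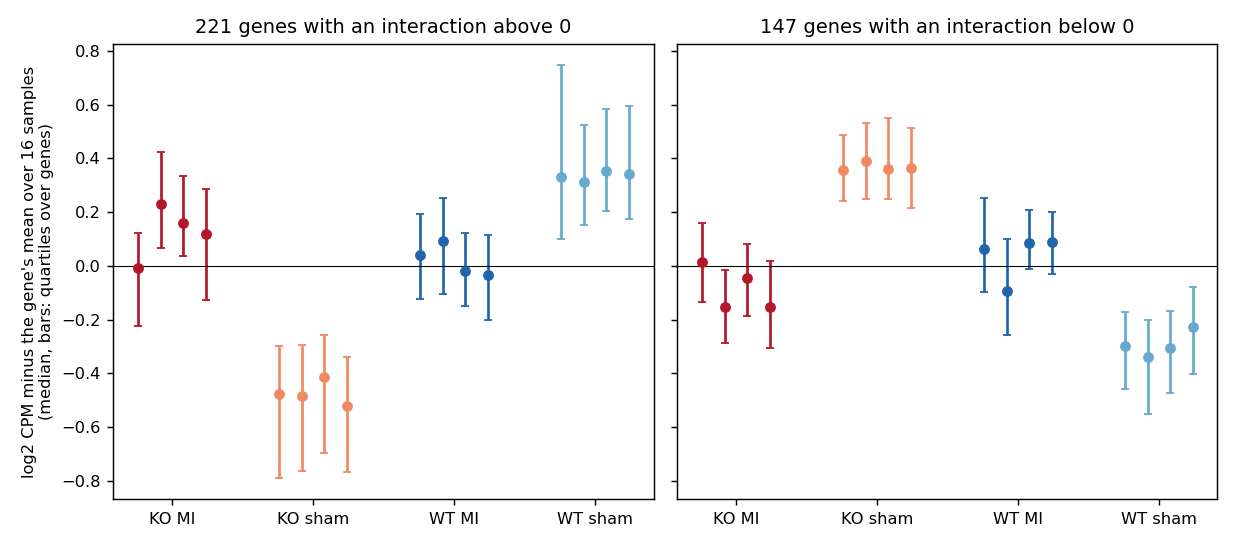
Log2 CPM of the called genes in each sample, relative to each gene's mean over the 16 samples; the left panel shows the 221 genes with an interaction above 0 and the right panel the 147 below 0, points are medians over genes and bars the quartiles. In the left panel the KO sham samples have medians of -0.52 to -0.41 and the WT sham samples 0.31 to 0.35, with the infarcted samples of both genotypes between them, and the right panel shows the mirror image.

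The responses that make up the interaction ran in opposite directions in 324 of the 368 genes. This count describes the called genes and carries no test, since the contrast itself favours responses of opposite sign. Of the 221 genes above 0, 158 rose with infarction in knockout and were not called in wild type, 25 fell in wild type and were not called in knockout, 17 did both, and 21 were called in neither. Of the 147 below 0, 87 fell in knockout only by the call, 34 rose in wild type only by the call, 5 did both, and 21 were called in neither. The median log2 response of the genes above 0 was 0.62 in knockout and -0.32 in wild type, and that of the genes below 0 was -0.46 in knockout and 0.38 in wild type. Over all genes, 2220 (16.6%) responded to infarction in knockout and 302 (2.25%) in wild type, and the genotypes differed after infarction for 2 genes, mt-Nd3 and Mylk3 (0.0149%; 638 at an unadjusted p under 0.05, 10 with DESeq2) and after sham for 2057 (15.3%). Because these 4 comparisons and the interaction share their samples, they are parts of one result and not independent observations. Called genes also differed in transcript length, with a median of 1271 bases above 0 and 2263 below 0, against 1466 for all genes tested, and correcting each library for length and GC content gave 441 genes, of which 325 were among the 368.

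**Figure D2:**
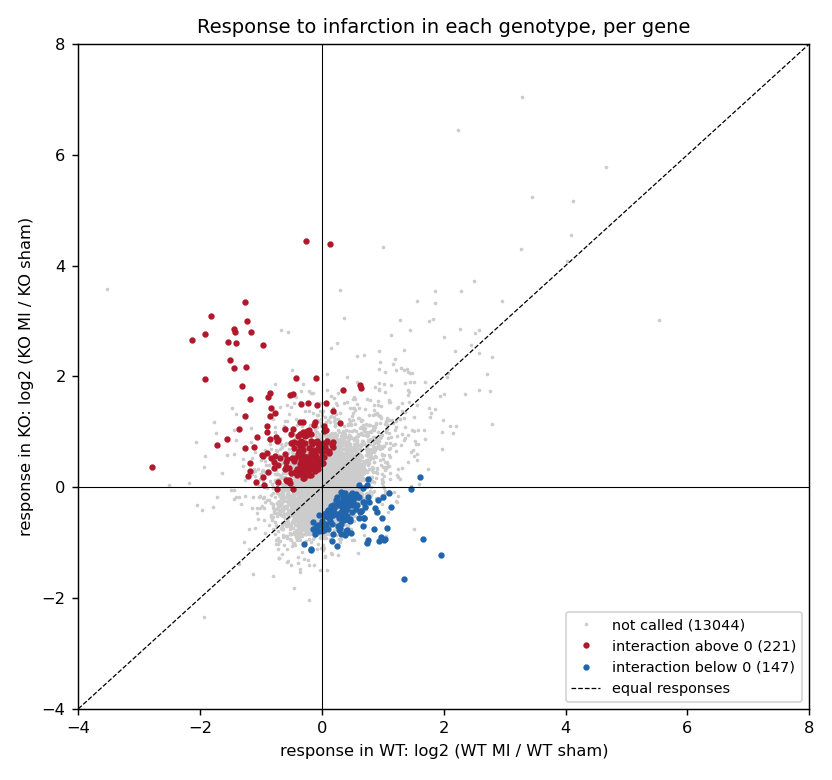
Log2 response to infarction in knockout (vertical) against that in wild type (horizontal) for the 13412 genes tested; red and blue points are the called interactions above and below 0, grey points the rest, and the dashed line marks equal responses. Most red points lie in the upper left, where knockout is above 0 and wild type below, and most blue points in the lower right.

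The genes with the smallest p-values shared this crossed pattern. Slc3a2, the heavy chain that carries amino acid transporters to the cell surface, stood at 53.8, 66.03, 66.1 and 70.8 CPM in KO MI and 45.9, 42.6, 44.2 and 44.3 CPM in KO sham. WT MI had 54.5, 61.96, 63.8 and 60.2 CPM and WT sham 106, 96.8, 90.4 and 96.3 CPM. No sample of a sham group overlapped any other group, with KO sham the lowest and WT sham the highest, while the infarcted groups overlapped each other. Its log2 interaction was 1.23 ± 0.12 (adjusted p = 2.78e-05), made of a response of 0.53 ± 0.09 (adjusted p = 0.000646) in knockout and -0.70 ± 0.09 (adjusted p = 0.000346) in wild type. Tnni1, the slow skeletal troponin I that the fetal heart uses before it switches to the cardiac form, stood at 847, 781, 719 and 596 CPM in KO MI and 383, 469.8, 396 and 398 CPM in KO sham. WT MI had 587, 755, 703 and 559 CPM and WT sham 858, 1164, 1174 and 1129 CPM. KO sham was again below and WT sham above every other sample. It rose in knockout by 0.84 ± 0.12 (adjusted p = 0.000342) and fell by 0.73 on the log2 scale in wild type (adjusted p = 0.00372), an interaction of 1.57 ± 0.18 (adjusted p = 0.000122). Arid5a, an RNA-binding protein that stabilises Il6 messenger RNA in macrophages, stood at 13.2, 16.3, 23.6 and 19.6 CPM in KO MI and 9.83, 10.5, 9.94 and 9.38 CPM in KO sham. WT MI had 17.7, 14.98, 20.1 and 17.7 CPM and WT sham 31.6, 29.3, 29.1 and 37.4 CPM. The shams bracketed all infarcted samples here too, with an interaction of 1.73 ± 0.20 (adjusted p = 0.000182). Plaur, the urokinase receptor that localises proteolysis to the cell surface, stood at 7.81, 8.42, 9.97 and 9.75 CPM in KO MI and 2.73, 3.75, 4.48 and 3.93 CPM in KO sham. WT MI had 7.98, 7.70, 6.32 and 4.81 CPM and WT sham 9.77, 10.4, 13.3 and 15.1 CPM. KO sham lay below all other samples, and WT sham overlapped KO MI only. Its interaction was 2.12 ± 0.26 (adjusted p = 0.000192). All 4 genes stayed called in each of the 16 fits that left out a library and in each of the 13 other alternatives.

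**Figure D3:**
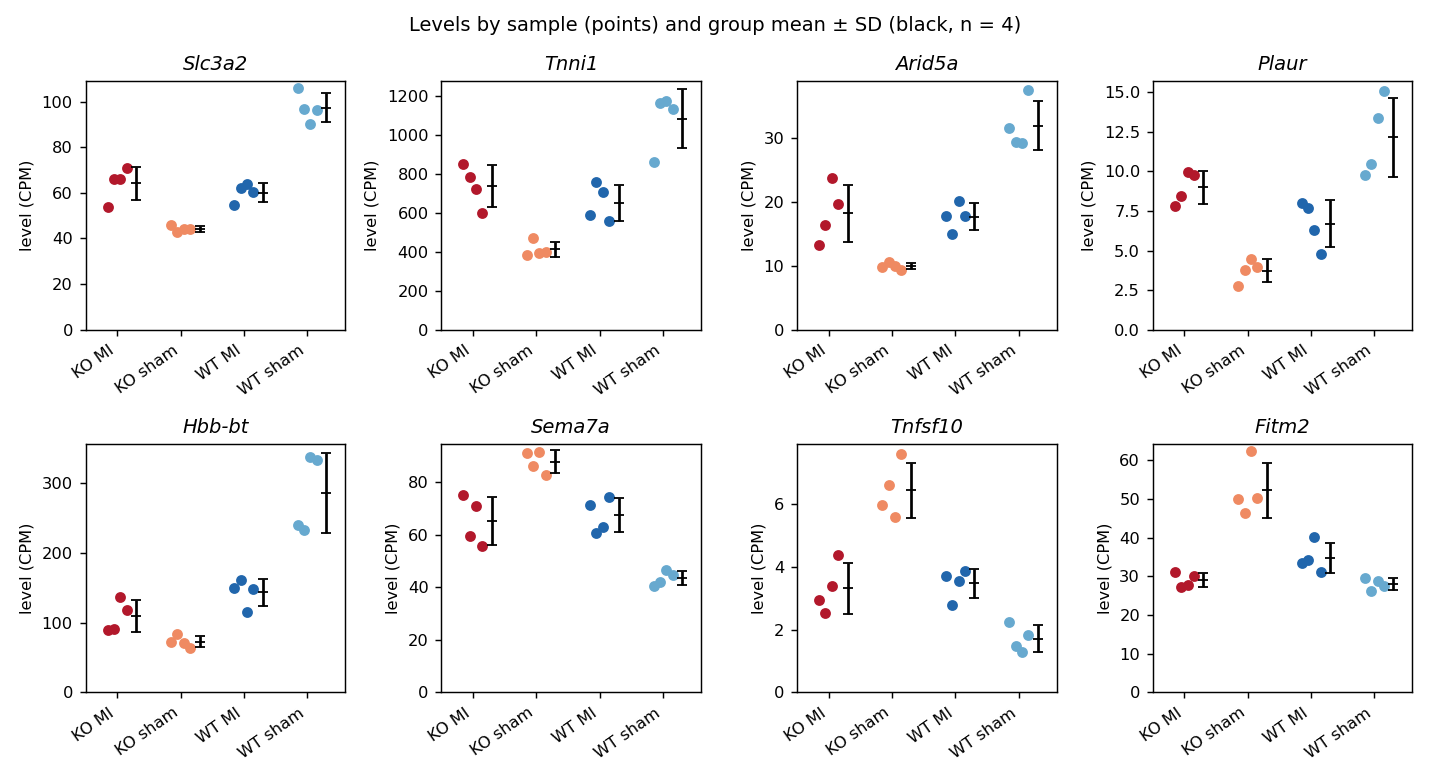
Levels in CPM of 8 genes in each sample (coloured points) with the group mean ± SD beside them (black, n = 4), each panel on its own axis from 0. In the first 5 panels KO sham is the lowest group and WT sham the highest, and in Sema7a, Tnfsf10 and Fitm2 KO sham is the highest.

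Several further genes above 0 stayed called in all alternatives that tested them, 16 with a library left out and 13 others (12 others for Lgals7 and Tmem151a). Cdr2, a cytoplasmic coiled-coil protein, had an interaction of 1.31 ± 0.16 (adjusted p = 0.000192), and Olfml2b, a secreted matrix protein, 1.17 ± 0.15 (adjusted p = 0.000387). Spon2, a matrix protein of the innate immune response, had 0.91 ± 0.13 (adjusted p = 0.000619), and Ptgds, a prostaglandin D synthase, 1.29 ± 0.18 (adjusted p = 0.000619). Lgals7, a galectin of stratified epithelia, had one of the larger interactions at 3.54 ± 0.58 (adjusted p = 0.00313). Tmem151a, a membrane protein, stood at 1.16, 2.67, 1.84 and 0.905 CPM in KO MI and 0.456, 0.735, 0.224 and 0.241 CPM in KO sham. WT MI had 0.740, 1.43, 1.28 and 0.429 CPM and WT sham 4.15, 4.13, 3.93 and 2.80 CPM, with an interaction of 3.86 ± 0.56 (adjusted p = 0.000844). Its WT sham samples lay above the 12 others, and KO sham, the lowest on average, overlapped WT MI.

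Genes of the epicardium and of mesothelium, the flat epithelium that covers the heart and lines the chest, were the list with the highest share of called members. Of 20 tested genes 13 were called above 0 and none below (65%, against 2.74% of all genes tested), and the median log2 interaction of the list was 1.38. In knockout 15 rose with infarction (8.54% of all genes tested rose), and in wild type 2 fell (0.932%). All KO sham samples were below the 12 others for 10 of the 20 (3.95% of all genes tested). Upk3b, a uroplakin of mesothelial cells, stood at 2.06, 15.6, 7.74 and 3.20 CPM in KO MI and 1.24, 1.03, 1.72 and 0.481 CPM in KO sham. WT MI had 4.94, 5.31, 4.21 and 2.32 CPM and WT sham 28.9, 14.97, 17.3 and 13.2 CPM. KO sham lay below every other sample, and KO MI spread widely, from the range of WT MI into that of WT sham. Its interaction was 4.79 ± 0.80 (adjusted p = 0.00633), with responses of 2.66 ± 0.62 (adjusted p = 0.0116) in knockout and -2.13 ± 0.50 (adjusted p = 0.0416) in wild type. Lrrn4, a leucine-rich repeat membrane protein, stood at 0.822, 6.39, 6.63 and 0.835 CPM in KO MI and 0.0651, 0.515, 0.673 and 0.481 CPM in KO sham. WT MI had 2.06, 2.27, 2.29 and 1.12 CPM and WT sham 11.5, 5.22, 6.12 and 4.83 CPM. KO sham lay below every other sample, WT sham lay above WT MI without overlap, and KO MI split into 2 high and 2 low samples. Its interaction of 4.92 ± 0.95 (adjusted p = 0.0118) was the largest of the called genes named here. Lrrn4 rose in knockout by 3.09 ± 0.75 (adjusted p = 0.0123), and its response of -1.83 ± 0.58 (adjusted p = 0.125) in wild type did not pass. Igfbp6, a binding protein of insulin-like growth factors, stood at 6.37, 12.1, 12.7 and 10.02 CPM in KO MI and 4.23, 5.88, 6.20 and 4.49 CPM in KO sham. WT MI had 9.79, 9.79, 9.34 and 6.18 CPM and WT sham 23.1, 12.7, 14.1 and 15.9 CPM, with KO sham below KO MI and WT sham and reaching only WT MI 4, and an interaction of 1.89 ± 0.31 (adjusted p = 0.00383).

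All called members of the list are named here. Msln, the mesothelin gene, stood at 4.52, 23.4, 18.5 and 4.52 CPM in KO MI and 2.08, 3.31, 3.51 and 2.57 CPM in KO sham. WT MI had 13.2, 15.8, 12.1 and 5.41 CPM and WT sham 43.9, 27.05, 29.6 and 26.7 CPM, so KO sham was below and WT sham above all other samples. Its interaction of 3.60 ± 0.73 (adjusted p = 0.0226) was not called without any one of KO sham 1 and 4 (log2 3.46 to 3.55). Upk1b, a uroplakin, stood at 1.10, 6.88, 5.12 and 1.67 CPM in KO MI and 0.521, 0.588, 0.523 and 0.160 CPM in KO sham. WT MI had 1.07, 2.09, 2.29 and 1.03 CPM and WT sham 6.23, 3.66, 3.20 and 2.32 CPM; KO sham lay below every other sample and the interaction was 4.24 ± 0.76 (adjusted p = 0.00616). Bnc1, a zinc finger protein of mesothelium, had an interaction of 4.30 ± 0.85 (adjusted p = 0.00927), and Rspo1, an enhancer of Wnt signalling, 2.76 ± 0.62 (adjusted p = 0.0202). The call for Rspo1 ended without any one of KO MI 2, KO sham 2 and 4 (log2 2.42 to 2.70). Muc16, the mucin known as CA-125, had 4.60 ± 1.07 (adjusted p = 0.0291), not called without any one of KO sham 1, 2 and 4, WT MI 3 and 4, WT sham 3 (log2 4.37 to 4.61), and Dmkn, a secreted epithelial protein, 4.71 ± 1.15 (adjusted p = 0.0334), not called without any one of KO MI 2 and 3, KO sham 1, 2, 3 and 4, WT MI 1 and 4, WT sham 1, 2 and 3 (log2 4.28 or more). Wt1, the transcription factor that marks the epicardium, had 0.96 ± 0.23 (adjusted p = 0.0271), not called without any one of KO MI 2 and 3, KO sham 1 and 2, WT MI 1 and 4 (log2 0.86 to 0.93). Among the keratins of simple epithelia, Krt19 had 1.53 ± 0.36 (adjusted p = 0.0258), Krt18 1.20 ± 0.30 (adjusted p = 0.0356) and Krt8 1.23 ± 0.33 (adjusted p = 0.049), and their calls held in 10, 6 and 3 of the 16 fits. Krt19 was lost without any one of KO MI 2, KO sham 1, 2 and 4, WT MI 1 and 4 (log2 1.25 to 1.57), Krt18 without any one of KO MI 2 and 4, KO sham 1, 2, 3 and 4, WT MI 1 and 3, WT sham 3 and 4 (log2 1.04 to 1.24) and Krt8 without any one of KO MI 2, 3 and 4, KO sham 1, 2, 3 and 4, WT MI 1, 2 and 3, WT sham 1, 3 and 4 (log2 1.04 to 1.30). Dmkn (4.84), Wt1 (0.97) and Krt19 (1.42) were not called without the 3 libraries low in Y-linked reads. Krt8 (1.23) and Krt18 (1.15) were not called with the length and GC correction. Dmkn (4.70), Muc16 (4.60) and Krt8 (1.22) were not called with no count filter. Dmkn (4.89) and Krt8 (1.11) were not called with all libraries thinned to the smallest total. Krt8 (1.23) was not called with the replicate number as a block. Krt8 (1.25) was not called with the Y-linked index as covariate. Krt8 (0.95) was not called with limma voom. Krt8 (1.20) was not called without haemoglobin and mitochondrial genes.

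**Figure D4:**
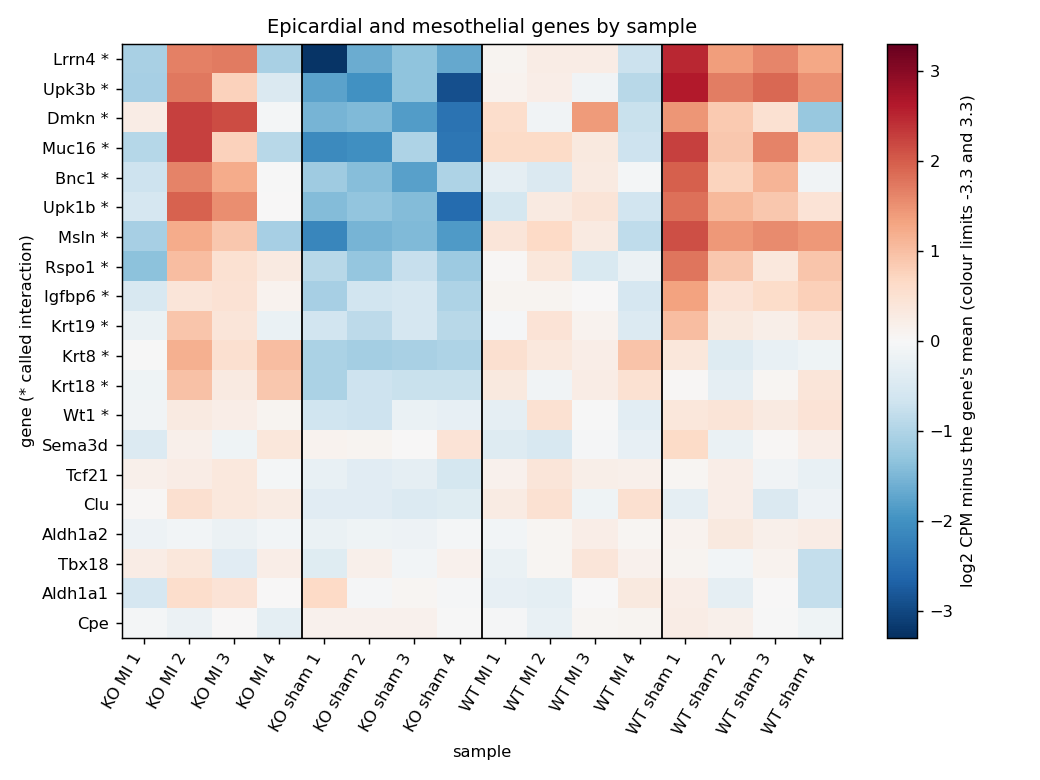
Log2 CPM of the 20 epicardial and mesothelial genes (rows, ordered by log2 interaction, with an asterisk where called) in the 16 samples (columns), relative to each gene's mean. The 13 called genes at the top are low in KO sham and, apart from Krt8, Krt18 and Dmkn, high in WT sham. Dmkn is at -1.25 in WT sham 4. In several called genes KO MI 2 and KO MI 3 are high as well, and the other 7 genes show smaller differences.

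Not called were the epicardial transcription factors Tcf21 and Tbx18, the retinoic acid enzymes Aldh1a1 and Aldh1a2, and Sema3d, Clu and Cpe, with log2 interactions between -0.14 (Cpe) and 0.37 (Sema3d). The atrial index was on average lowest in KO sham and highest in WT sham, as were most of the called mesothelial genes. Within KO MI the order differed, since the index was 6.76 and 5.41 in KO MI 2 and 3, where Lrrn4, Upk3b, Msln and Upk1b were high, and 5.81 and 7.10 in KO MI 1 and 4, where they were low. With that index as a covariate 1 of the 20 was called (Igfbp6), 7 were called when a mean of at least 50 counts was required, and 6 to 13 when a library was left out. The requirement of 50 counts left Lrrn4, Upk1b, Dmkn, Muc16 and Bnc1 untested. Under the covariate the log2 interactions of Lrrn4, Upk3b and Msln were 4.69, 4.13 and 3.47. Atrial genes themselves had none called of 14, which a list of this size can show at the 2.74% of all genes tested. With DESeq2 3 were called, and with a library left out 0 to 2. The median log2 interaction of the 14 genes was 1.03. Among them Myl7, the atrial regulatory light chain, stood at 189 ± 96.6 CPM in KO MI and 88.9 ± 26.9 CPM in KO sham, against 254 ± 159 CPM in WT MI and 433 ± 235 CPM in WT sham (SD, n = 4 each), with an interaction of 1.86 ± 0.72 (adjusted p = 0.191). The index averaged 6.27 in KO MI and 5.22 in KO sham, against 6.78 in WT MI and 7.40 in WT sham. Because it differed between the groups along the contrast, the covariate cannot separate tissue from genotype and surgery. The part of atrial or pericardial tissue in the result was therefore not tested. In bulk tissue, fewer cells of a type and less RNA per cell cannot be told apart.

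Transcription factors of the immediate early response are induced within minutes of a stimulus. They held 4 called genes of 30, all above 0 (13.3%, against 2.74% of all genes tested), with a list median of 0.41. Nr4a1, an orphan nuclear receptor induced by cyclic AMP and stress, stood at 69.7, 47.6, 106 and 27.1 CPM in KO MI and 14.1, 15.1, 14.4 and 12.3 CPM in KO sham. WT MI had 54.9, 34.1, 169 and 82.2 CPM and WT sham 266, 187, 159 and 189.7 CPM. KO sham was below every other sample, and WT MI 3 reached the range of WT sham. The interaction was 3.41 ± 0.68 (adjusted p = 0.0226), not called without any one of KO sham 1 and 4 (log2 3.35 to 3.41), and the response was 2.16 ± 0.50 (adjusted p = 0.0137) in knockout and -1.24 ± 0.46 (adjusted p = 0.215), not called, in wild type. Its relative Nr4a3 stood at 0.754, 1.82, 3.08 and 2.37 CPM in KO MI and 1.76, 1.18, 2.32 and 0.962 CPM in KO sham. WT MI had 1.07, 1.07, 2.65 and 1.80 CPM and WT sham 15.4, 6.78, 12.5 and 10.2 CPM. Here WT sham alone stood out, every one of its samples above the other 12, and Nr4a3 fell by 2.80 on the log2 scale in wild type (adjusted p = 0.000793), with an interaction of 3.16 ± 0.54 (adjusted p = 0.00402). Atf3, a stress-induced repressor, had a mean of 7.59 ± 0.571 CPM in KO MI and 3.999 ± 1.35 CPM in KO sham, against 11.1 ± 5.10 CPM in WT MI and 18.6 ± 3.44 CPM in WT sham (SD, n = 4 each), KO sham below every other sample, and an interaction of 1.67 ± 0.36 (adjusted p = 0.0166). Maff, a small Maf factor, had 1.31 ± 0.28 (adjusted p = 0.0138). With the atrial index as covariate 1 of the 30 was called, without the 3 libraries low in Y-linked reads 2, and with limma voom 8. Over all genes tested these settings called 112, 217 and 1524 genes. Fos, the archetype of the group, reached 2.35 ± 0.70 and did not pass (adjusted p = 0.0931), although it rose in knockout by 2.60 ± 0.56 (adjusted p = 0.00677). Per1, a clock gene that cyclic AMP and glucocorticoids also induce, stood at 38.6, 46.9, 86.9 and 36.8 CPM in KO MI and 30.002, 33.7, 33.1 and 29.9 CPM in KO sham. WT MI had 44.7, 41.5, 56.5 and 68.9 CPM and WT sham 124, 107, 98.03 and 130.1 CPM. WT sham lay above all other samples and KO sham below them, with a rise in knockout of 0.72 ± 0.23 (adjusted p = 0.0401), a fall in wild type (log2 -1.12 ± 0.22, adjusted p = 0.015) and an interaction of 1.85 ± 0.32 (adjusted p = 0.00618). Nr4a1 (3.24), Atf3 (1.25) and Maff (0.93) were not called with the atrial index as covariate. Nr4a1 (3.23) and Atf3 (1.48) were not called without the 3 libraries low in Y-linked reads.

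The promoters of Nr4a1, Nr4a3 and Per1 are shown because all have called interactions above 0 and are textbook targets of the cyclic AMP response element. Nr4a1 was chosen by the rule for named genes, and Nr4a3, Per1 and Mt2 (below) after their values were seen. Printed are the 250 bases before the annotated start from RefSeq (GRCm38.p6), 5′ to 3′ on the gene's strand, with the core motif TGACG, on either strand, in capitals. The windows are chr15:101266596-101266845, + strand for Nr4a1, chr4:48045055-48045304, + strand for Nr4a3 and chr11:69098699-69098948, + strand for the first of 2 starts listed for Per1.
Nr4a1: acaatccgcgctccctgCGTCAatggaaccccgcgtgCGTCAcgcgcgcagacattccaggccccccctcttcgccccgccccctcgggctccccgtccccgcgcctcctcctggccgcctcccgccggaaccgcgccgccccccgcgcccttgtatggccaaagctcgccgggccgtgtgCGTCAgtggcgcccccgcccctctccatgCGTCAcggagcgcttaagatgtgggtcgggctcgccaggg
Nr4a3: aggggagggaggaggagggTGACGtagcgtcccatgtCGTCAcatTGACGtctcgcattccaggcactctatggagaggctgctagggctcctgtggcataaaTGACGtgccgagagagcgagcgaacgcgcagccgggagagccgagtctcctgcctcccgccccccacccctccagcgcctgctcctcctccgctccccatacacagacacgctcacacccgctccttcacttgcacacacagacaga
Per1: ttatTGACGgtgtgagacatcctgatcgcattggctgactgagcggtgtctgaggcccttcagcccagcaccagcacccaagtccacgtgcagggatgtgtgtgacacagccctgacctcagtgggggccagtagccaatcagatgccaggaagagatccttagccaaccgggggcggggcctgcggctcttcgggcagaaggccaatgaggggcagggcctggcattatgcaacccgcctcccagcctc
Nr4a1 and Nr4a3 held 4 matches each and Per1 1. The core motif was present in 52 of the 176 promoters of called genes above 0 that the table holds (29.5%), in 14 of 104 below 0 (13.5%) and in 26.5% of 10466 genes tested. Promoters with 3 or more matches made up 1.14% of those above 0, 0% of those below 0 and 1.39% of the genes tested. A match is a stretch of letters and not evidence of binding.

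Plaur, named above, is a known target of AP-1, the dimer of Fos and Jun proteins, and its 250 bases (chr7:24462233-24462482, + strand) hold 1 match to TGANTCA, shown in capitals.
Plaur: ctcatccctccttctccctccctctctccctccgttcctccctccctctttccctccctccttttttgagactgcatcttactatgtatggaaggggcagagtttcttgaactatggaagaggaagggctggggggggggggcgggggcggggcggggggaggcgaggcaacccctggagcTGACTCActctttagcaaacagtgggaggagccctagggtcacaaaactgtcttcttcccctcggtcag
That motif was present in 7.95% of the promoters of called genes above 0, 10.6% below 0 and 4.26% of genes tested.

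Metallothioneins, small proteins that bind zinc and copper and are induced by metal, glucocorticoids and stress, were low in KO sham. Of 11 tested genes of metallothioneins and zinc transport 4 were called, all above 0 (36.4%, against 2.74% of all genes tested). Mt2 stood at 10.5, 11.998, 8.92 and 13.1 CPM in KO MI and 3.97, 2.35, 2.09 and 2.89 CPM in KO sham. WT MI had 12.2, 11.1, 6.32 and 6.09 CPM and WT sham 6.92, 7.95, 12.6 and 11.3 CPM. KO sham was below every other sample, and the other groups overlapped. Mt2 rose in knockout by 1.96 ± 0.26 (adjusted p = 0.000166), had a response of -0.10 ± 0.24 (adjusted p = 0.885) in wild type, and an interaction of 2.07 ± 0.35 (adjusted p = 0.00402). Mt1 stood at 76.7, 83.99, 72.6 and 67.1 CPM in KO MI and 42.3, 43.96, 45.8 and 37.8 CPM in KO sham. WT MI had 83.7, 74.6, 65.5 and 60.7 CPM and WT sham 58.3, 62.5, 90.6 and 104 CPM, with KO sham again below all others and an interaction of 0.97 ± 0.21 (adjusted p = 0.0181), and Mt3 had 0.98 ± 0.20 (adjusted p = 0.0103). Slc39a8, an importer of zinc and manganese, stood at 2.19, 4.14, 3.87 and 4.66 CPM in KO MI and 1.30, 1.32, 1.64 and 1.60 CPM in KO sham. WT MI had 3.13, 2.33, 4.21 and 2.83 CPM and WT sham 8.21, 4.99, 4.57 and 3.19 CPM, with KO sham below all others, and had an interaction of 2.10 ± 0.39 (adjusted p = 0.00633). Slc39a8 (1.29) and Mt3 (0.91) were not called with the atrial index as covariate. Mt1, Mt2, Mt3 and Slc39a8 stayed called in every fit without a library, and 2 of the list were called with the atrial index as covariate. The list median was 0.06, as 6 of the 11 genes were above 0 and 5 below. The promoter of Mt2 is shown for its metal response elements, the sites of the zinc sensor Mtf1, over chr8:94172368-94172617, + strand, with matches to TGCACNC or TGCGCNC on either strand in capitals.
Mt2: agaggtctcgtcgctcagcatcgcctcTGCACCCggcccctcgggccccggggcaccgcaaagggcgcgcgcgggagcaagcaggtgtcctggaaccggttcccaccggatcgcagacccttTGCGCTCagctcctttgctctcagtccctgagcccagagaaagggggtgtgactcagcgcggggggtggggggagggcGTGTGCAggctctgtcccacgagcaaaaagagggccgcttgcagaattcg
It held 3 matches. One or more was present in 32.4% of promoters of called genes above 0, 31.7% below 0 and 30.2% of the genes tested.

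Red cell genes were the second list by share of called members. Of the 11 tested, 6 were called above 0 (54.5%, against 2.74% of all genes tested), with a median of 1.11. With infarction 6 of the 11 fell in wild type (0.932% of all genes tested fell), and 3 rose in knockout (8.54% rose). Hba-a1, an alpha globin, stood at 398, 403, 678 and 409.9 CPM in KO MI and 350.0, 487, 321 and 378 CPM in KO sham. WT MI had 678, 638, 612 and 649 CPM and WT sham 1202, 1090.1, 1711 and 1840.2 CPM. Each WT sham sample was above all 12 others, and the other groups lay within a smaller range. It fell by 1.18 on the log2 scale in wild type (adjusted p = 0.00282), with an interaction of 1.48 ± 0.26 (adjusted p = 0.0054). Hbb-bt, a beta globin, stood at 89.5, 91.6, 138 and 118 CPM in KO MI and 72.6, 83.95, 70.5 and 64.5 CPM in KO sham. WT MI had 149.6, 161, 115 and 148 CPM and WT sham 240.1, 233, 337 and 333 CPM. WT sham lay above and KO sham below all others, with an interaction of 1.57 ± 0.21 (adjusted p = 0.000619). Alas2, the first enzyme of haem synthesis in red cells, stood at 46.9, 46.03, 80.2 and 54.6 CPM in KO MI and 44.5, 50.3, 40.1 and 38.2 CPM in KO sham. WT MI had 79.4, 69.1, 67.2 and 77.8 CPM and WT sham 124, 116, 132 and 109 CPM, with WT sham above all others and an interaction of 1.11 ± 0.20 (adjusted p = 0.00518). Hba-a2 and Hbb-bs had 1.62 ± 0.31 (adjusted p = 0.0102) and 1.16 ± 0.24 (adjusted p = 0.013). Both globin pairs are near-identical copies, so reads may be split between them. Bpgm, which makes the phosphoglycerate that lowers the oxygen affinity of haemoglobin, had 0.60 ± 0.15 (adjusted p = 0.0384), not called without any one of KO MI 3, KO sham 1, 2 and 4, WT MI 1, 3 and 4, WT sham 1 and 3 (log2 0.50 to 0.63). The summed level of the list was 1313 to 2084 CPM in KO MI and 1332 to 1673 CPM in KO sham, against 1907 to 2362 CPM in WT MI and 3164 to 4939.7 CPM in WT sham. The amount of blood left in each ventricle is not recorded in the labels, and its part in the result was not tested. Bpgm (0.56) was not called with the atrial index as covariate. Bpgm (0.64) was not called without the 3 libraries low in Y-linked reads. Bpgm (0.52) was not called with the length and GC correction.

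In cardiomyocytes the fetal and stress programme held 4 called genes of 23 (17.4%), 3 above 0 and 1 below, with a list median of 0.28. Besides Tnni1, Myl9, a regulatory light chain of smooth muscle and immature heart, stood at 259.6, 370.0, 270.2 and 380.2 CPM in KO MI and 132, 143, 167 and 149 CPM in KO sham. WT MI had 355, 471, 254 and 338 CPM and WT sham 362, 422, 444 and 325 CPM. KO sham was below every other sample and the other groups overlapped. Myl9 rose in knockout by 1.12 ± 0.16 (adjusted p = 0.000358), with an interaction of 1.25 ± 0.23 (adjusted p = 0.00618). Tagln, an actin-binding protein of smooth muscle and embryonic heart, had 0.78 ± 0.18 (adjusted p = 0.023), not called without any one of KO MI 2, KO sham 1 and 2, WT sham 3 (log2 0.74 to 0.76). Xirp2, which binds actin at the junctions between heart cells, stood at 127, 225, 154 and 180.0 CPM in KO MI and 217, 139.5, 186 and 198 CPM in KO sham. WT MI had 251, 215, 184 and 380.5 CPM and WT sham 119, 120.0, 127 and 114 CPM. WT sham was the lowest and WT MI the highest on average, KO MI and KO sham overlapped, and the interaction was -1.21 ± 0.28 (adjusted p = 0.0282). It was not called without any one of KO MI 3 and 4, KO sham 1, 3 and 4, WT MI 1, WT sham 2, 3 and 4 (log2 -1.24 to -1.12). The atrial natriuretic peptide Nppa stood at 1265 ± 869 CPM in KO MI and 223 ± 101 CPM in KO sham, against 1246 ± 368 CPM in WT MI and 1124 ± 658 CPM in WT sham (SD, n = 4 each). Nppa rose in knockout by 2.50 ± 0.61 (adjusted p = 0.0169), and its interaction of 2.36 ± 0.83 (adjusted p = 0.157) did not pass. Neither its relative Nppb (0.16 ± 0.38, adjusted p = 0.864), skeletal actin Acta1 (0.42 ± 0.28, adjusted p = 0.455), the calcium pump Atp2a2 (-0.43 ± 0.15, adjusted p = 0.132) nor the myosin light chain kinase Mylk3 (-0.14 ± 0.12, adjusted p = 0.59) passed. Acta1 was higher after infarction in each genotype, by 1.33 ± 0.20 (adjusted p = 0.000703) in knockout and 0.91 ± 0.20 (adjusted p = 0.0234) in wild type. No sarcomere gene of 25, calcium handling gene of 25, fatty acid oxidation gene of 29 or nuclear respiratory chain gene of 32 was called. As 2.74% of all genes tested were called, lists of this size can hold none without differing from other genes. Xirp2 (-1.31), Myl9 (1.20) and Tagln (0.84) were not called with the atrial index as covariate. Tagln (0.78) was not called without the 3 libraries low in Y-linked reads. Xirp2 (-0.94) was not called with the length and GC correction. Xirp2 (-1.22) was not called with no count filter.

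The cardiac transcription factors held 4 called genes of 23 (17.4%, against 2.74% of all genes tested). Irx3, an Iroquois factor of the conduction system, stood at 78.2, 71.9, 66.4 and 42.5 CPM in KO MI and 104, 132, 111 and 114 CPM in KO sham. WT MI had 65.97, 84.6, 72.9 and 73.2 CPM and WT sham 57.4, 65.1, 53.5 and 38.2 CPM. KO sham was above every other sample. Irx3 fell in knockout (log2 -0.83 ± 0.16, adjusted p = 0.00271), with an interaction of -1.30 ± 0.23 (adjusted p = 0.00518). Its neighbour Irx5, which sets the gradient of potassium channels across the ventricular wall, had -0.96 ± 0.22 (adjusted p = 0.0216), not called without any one of KO sham 2, WT sham 3 (log2 -0.92 to -0.91), and Tbx2, a repressor of chamber genes, -0.72 ± 0.18 (adjusted p = 0.0301), not called without any one of KO MI 2, KO sham 1, 2, 3 and 4, WT MI 1 and 3, WT sham 1 and 3 (log2 -0.74 to -0.64). Hand2, a factor of the right ventricle and of the epicardium, moved the other way. It stood at 64.5, 61.3, 67.8 and 42.8 CPM in KO MI and 41.98, 43.8, 36.99 and 40.4 CPM in KO sham. WT MI had 66.7, 62.1, 70.8 and 58.3 CPM and WT sham 71.8, 84.1, 71.5 and 80.3 CPM, with WT sham above every other sample and KO sham overlapping only KO MI, and had an interaction of 0.79 ± 0.16 (adjusted p = 0.0109). Among 22 ion channels 2 were called below 0 (9.09%), among them the pacemaker channel Hcn2 (-0.94 ± 0.21, adjusted p = 0.0232, not called without any one of KO sham 3 and 4, WT sham 3 (log2 -0.93 to -0.87)). Irx3 (-1.23), Irx5 (-0.80), Tbx2 (-0.64) and Hcn2 (-0.72) were not called with the atrial index as covariate. Irx5 (-0.98) and Tbx2 (-0.78) were not called without the 3 libraries low in Y-linked reads.

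Among genes with an interaction below 0, KO sham was the high group or WT sham the low one in those shown here. Sema7a, a membrane-bound semaphorin that acts on monocytes and axons, stood at 75.1, 59.6, 70.8 and 55.6 CPM in KO MI and 91.1, 85.9, 91.3 and 82.5 CPM in KO sham. WT MI had 71.2, 60.8, 62.98 and 74.4 CPM and WT sham 40.6, 41.9, 46.4 and 44.8 CPM. The sham groups overlapped no other group, on opposite sides of the infarcted samples. It fell in knockout (log2 -0.43 ± 0.09, adjusted p = 0.00563) and rose in wild type (0.63 ± 0.10, adjusted p = 0.00227), with an interaction of -1.06 ± 0.14 (adjusted p = 0.000287). Fitm2, which buds lipid droplets from the endoplasmic reticulum, stood at 31.03, 27.4, 27.8 and 30.1 CPM in KO MI and 49.98, 46.3, 62.5 and 50.2 CPM in KO sham. WT MI had 33.6, 34.2, 40.2 and 31.1 CPM and WT sham 29.7, 26.2, 28.7 and 27.6 CPM. KO sham lay above every other sample, and WT MI above WT sham without overlap. Fitm2 fell in knockout (log2 -0.84 ± 0.10, adjusted p = 6.44e-05), with an interaction of -1.15 ± 0.14 (adjusted p = 0.000192). Tnfsf10, the death ligand TRAIL, stood at 2.95, 2.53, 3.41 and 4.39 CPM in KO MI and 5.99, 6.62, 5.61 and 7.62 CPM in KO sham. WT MI had 3.70, 2.81, 3.57 and 3.86 CPM and WT sham 2.25, 1.48, 1.28 and 1.84 CPM. KO sham was the highest group and WT sham the lowest, with no overlap with the infarcted samples, and the interaction was -1.97 ± 0.29 (adjusted p = 0.00111). Aplnr, the apelin receptor of endothelium, stood at 134, 80.4, 104 and 68.7 CPM in KO MI and 153, 171, 162 and 139 CPM in KO sham. WT MI had 123, 81.9, 98.4 and 113 CPM and WT sham 59.4, 62.7, 63.2 and 74.2 CPM. KO sham lay above every other sample, and the interaction was -1.37 ± 0.23 (adjusted p = 0.00397), while the gene of its ligand, Apln, had 1.03 ± 0.25 (adjusted p = 0.0276), on the other side of 0. The call for Apln ended without any one of KO MI 2 and 3, KO sham 1 and 2, WT MI 1 and 4, WT sham 3 (log2 0.92 to 1.02). Galnt15, an enzyme that starts mucin-type sugar chains, stood at 11.6, 6.95, 6.76 and 11.8 CPM in KO MI and 21.2, 19.8, 15.1 and 16.6 CPM in KO sham. WT MI had 12.8, 5.67, 10.7 and 12.4 CPM and WT sham 5.71, 4.29, 5.21 and 6.48 CPM. KO sham lay above every other sample, with an interaction of -1.91 ± 0.33 (adjusted p = 0.00503). Apln (0.89) was not called with the atrial index as covariate.

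Further genes below 0 by the naming rule were Dusp7, a phosphatase of the kinase ERK (-1.02 ± 0.15, adjusted p = 0.000827), Fam43a (-0.96 ± 0.15, adjusted p = 0.00143), Sp100, a nuclear body protein (-0.94 ± 0.16, adjusted p = 0.00429), Abi3bp, a matrix protein (-1.18 ± 0.21, adjusted p = 0.00467), and Rasa4, a calcium-dependent Ras inhibitor (-1.51 ± 0.27, adjusted p = 0.0054). These 5 stayed called in every fit without a library. Prdm1, a repressor that directs lymphocyte and germ cell fate, had -1.49 ± 0.34 (adjusted p = 0.0236), not called without any one of KO sham 4, WT sham 3 (log2 -1.44 to -1.33). Olfr78, an odorant-type receptor of oxygen-sensing and vascular cells, had -1.97 ± 0.47 (adjusted p = 0.0276), Rasgrf2, a Ras exchange factor, -1.75 ± 0.44 (adjusted p = 0.0349), and Gipc3, a PDZ domain adaptor, -1.61 ± 0.38 (adjusted p = 0.0271). Their calls held in 8, 6 and 7 of the 16 fits. Olfr78 was lost without any one of KO MI 2, KO sham 1, 2 and 3, WT MI 1, 3 and 4, WT sham 3 (log2 -2.04 to -1.77), Rasgrf2 without any one of KO MI 2 and 3, KO sham 1, 2, 3 and 4, WT MI 1 and 3, WT sham 1 and 2 (log2 -1.80 to -1.54) and Gipc3 without any one of KO MI 2, KO sham 1, 2 and 3, WT MI 1, 3 and 4, WT sham 2 and 3 (log2 -1.61 to -1.48). Olfr78 (-1.62), Rasgrf2 (-1.60), Gipc3 (-1.44) and Prdm1 (-1.21) were not called with the atrial index as covariate. Rasgrf2 (-1.48), Gipc3 (-1.73) and Prdm1 (-1.38) were not called without the 3 libraries low in Y-linked reads. Rasgrf2 (-1.60) was not called with all libraries thinned to the smallest total. Rasgrf2 (-1.74) was not called with the replicate number as a block.

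The lists of quiescent and of activated fibroblasts held 4 called genes, all below 0. Over all members, called or not, 4 of the 20 quiescent genes lay above 0 (median -0.26). In the activated list 14 of the 26 did (median 0.07), so it did not lean below 0 as a whole. Of 20 genes of quiescent fibroblasts 2 were called (10%, against 2.74% of all genes tested), Smoc2 (-0.50 ± 0.12, adjusted p = 0.0331) and Htra3 (-0.71 ± 0.18, adjusted p = 0.0383), a matrix glycoprotein and a secreted protease whose calls held in 5 and 5 of the 16 fits. Smoc2 was lost without any one of KO MI 2 and 3, KO sham 1, 2, 3 and 4, WT MI 1 and 3, WT sham 1, 2 and 3 (log2 -0.53 to -0.45) and Htra3 without any one of KO MI 2 and 3, KO sham 1, 2, 3 and 4, WT MI 1 and 3, WT sham 1, 3 and 4 (log2 -0.75 to -0.60). Of 26 genes of activated fibroblasts and scar 2 were called below 0 (7.69%). Cilp, a matrix protein of cartilage and of cardiac fibroblasts, stood at 10.5, 11.4, 15.8 and 12.04 CPM in KO MI and 10.6, 9.48, 12.9 and 10.99 CPM in KO sham. WT MI had 20.98, 12.9, 9.25 and 24.3 CPM and WT sham 6.14, 4.44, 5.57 and 5.99 CPM. WT sham lay below every other sample and WT MI spread from 9.25 to 24.3 CPM. Cilp rose in wild type by 1.61 ± 0.24 (adjusted p = 0.00227) with a response of 0.18 ± 0.22 (adjusted p = 0.617) in knockout, and the interaction of -1.43 ± 0.33 (adjusted p = 0.0243) was not called without any one of KO MI 2, KO sham 1 and 3, WT MI 1, WT sham 2 and 3 (log2 -1.44 to -1.30). Col8a1, a short-chain collagen of vessel walls, had -1.54 ± 0.38 (adjusted p = 0.0362), not called without any one of KO MI 1, 2 and 3, KO sham 1, 3 and 4, WT MI 1, WT sham 1, 2 and 3 (log2 -1.61 to -1.43). Col28a1, a collagen of peripheral nerve, had -1.70 ± 0.44 (adjusted p = 0.0392), not called without any one of KO MI 2, KO sham 1, 2 and 4, WT MI 1 and 4, WT sham 1 and 3 (log2 -1.77 to -1.44). Among 21 endothelial genes (9.52% called), the tight junction gene Cldn5 was called above 0 (0.80 ± 0.15, adjusted p = 0.00669) and Ly6c1 below (-0.75 ± 0.17, adjusted p = 0.0232, not called without any one of KO MI 2, KO sham 1 and 2, WT MI 1, WT sham 3 (log2 -0.74 to -0.64)). Cilp (-1.24), Smoc2 (-0.44), Htra3 (-0.77), Col8a1 (-1.48), Col28a1 (-1.38) and Ly6c1 (-0.65) were not called with the atrial index as covariate. Cilp (-1.48), Smoc2 (-0.49), Htra3 (-0.71), Col8a1 (-1.63) and Col28a1 (-1.48) were not called without the 3 libraries low in Y-linked reads. Col28a1 (-1.70) was not called with all libraries thinned to the smallest total. Col28a1 (-1.67) was not called with the replicate number as a block. Col8a1 (-1.47) was not called with the Y-linked index as covariate.

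Genes of the imprinted growth network are expressed from a single parental copy and restrain or drive growth before weaning. Of 15 tested, 3 were called above 0 (20%, against 2.74% of all genes tested). An interaction above 0 was seen in 14 of the 15 (median 0.48). Dlk1, a Notch-like growth regulator, stood at 19.9, 25.2, 14.8 and 16.99 CPM in KO MI and 12.2, 20.1, 19.95 and 14.3 CPM in KO sham. WT MI had 10.9, 11.3, 10.98 and 13.5 CPM and WT sham 24.8, 32.04, 25.3 and 25.6 CPM. WT MI was the lowest group on average and WT sham the highest, without overlap between them. Dlk1 fell by 1.21 on the log2 scale in wild type (adjusted p = 0.00114) with a response of 0.21 ± 0.17 (adjusted p = 0.407) in knockout, an interaction of 1.42 ± 0.24 (adjusted p = 0.0039). Mest, a hydrolase of mesodermal tissue, stood at 229, 281, 253 and 245 CPM in KO MI and 153, 136, 154 and 139 CPM in KO sham. WT MI had 211, 282, 193 and 234 CPM and WT sham 215, 261, 234 and 256 CPM. There KO sham was below all other samples, and Mest rose in knockout by 0.79 ± 0.10 (adjusted p = 0.000166), with an interaction of 0.86 ± 0.15 (adjusted p = 0.00402). Plagl1, a zinc finger factor that regulates this network, had 0.69 ± 0.16 (adjusted p = 0.0271), not called without any one of KO MI 2, KO sham 1 and 3, WT MI 1 and 4, WT sham 3 (log2 0.59 to 0.70). Of 23 genes of lipid droplets and lipid synthesis 10 were above 0 (median -0.06), and 1, below 0, was called (4.35%). Of 19 cholesterol synthesis genes 4 were called above 0 (21.1%, median 0.39). Cyp51, which removes a methyl group from lanosterol, stood at 16.4, 18.5, 17.1 and 21.4 CPM in KO MI and 11.8, 13.3, 13.5 and 12.5 CPM in KO sham. WT MI had 11.8, 16.2, 13.7 and 16.7 CPM and WT sham 19.5, 19.6, 21.3 and 13.4 CPM. KO sham was the lowest group on average but overlapped both wild-type groups, and the interaction of 0.86 ± 0.19 (adjusted p = 0.0216) was not called without any one of KO sham 1, WT sham 3 (log2 0.79 to 0.83). Also called were Insig1, which holds the sterol sensor in the endoplasmic reticulum (0.70 ± 0.18, adjusted p = 0.0369), and Srebf2, the factor that drives the pathway (0.66 ± 0.17, adjusted p = 0.0392). Insig1 was lost without any one of KO MI 2, KO sham 1, 2, 3 and 4, WT MI 1, 3 and 4, WT sham 1, 3 and 4 (log2 0.54 to 0.73) and Srebf2 without any one of KO MI 2 and 3, KO sham 1, 2 and 4, WT MI 1, 3 and 4, WT sham 1, 2, 3 and 4 (log2 0.53 to 0.69). With the atrial index as covariate none of the 19 was called. Cyp51 (0.69), Insig1 (0.51), Srebf2 (0.63) and Plagl1 (0.51) were not called with the atrial index as covariate. Cyp51 (0.91), Insig1 (0.72), Srebf2 (0.66) and Plagl1 (0.75) were not called without the 3 libraries low in Y-linked reads. Plagl1 (0.57) was not called with the length and GC correction. Srebf2 (0.63) was not called with all libraries thinned to the smallest total. Insig1 (0.69) was not called with the replicate number as a block.

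Ribosomal protein genes held 1 call but had the same sign throughout. All 36 tested genes of the cytosolic ribosome had a log2 interaction above 0 (median 0.43, 0.29 to 0.65). With infarction 24 rose in knockout (8.54% of all genes tested rose) and none was called in wild type. Genes of this family have processed pseudogenes that can share their reads. One, Rps19, was called (0.54 ± 0.14, adjusted p = 0.0447, 2.78% of the list), and its call ended without any one of KO MI 2 and 3, KO sham 1, 2, 3 and 4, WT MI 1, 3 and 4, WT sham 2, 3 and 4 (log2 0.48 to 0.58). Their median lay between 0.35 (length and GC correction) and 0.53 under the 13 alternatives. With limma voom 26 were called, a setting that called 1524 of all 13412 genes tested. Rps19 (0.55) was not called with the atrial index as covariate. Rps19 (0.44) was not called with the length and GC correction. Rps19 (0.54) was not called with all libraries thinned to the smallest total. Rps19 (0.53) was not called with the replicate number as a block. Rps19 (0.51) was not called without haemoglobin and mitochondrial genes.

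Cell division genes were also mostly above 0. Of 30 genes of DNA replication and entry into the cell cycle 29 had an interaction above 0 (median 0.39). With infarction 22 rose in knockout (8.54% of all genes tested rose). The 1 called interaction (3.33% of the list) was that of Lig1, the replicative DNA ligase (0.69 ± 0.15, adjusted p = 0.014). Of 30 genes of mitosis and cytokinesis none was called (median 0.26). Mki67, the proliferation marker, had 0.10 ± 0.18 (adjusted p = 0.806), Ccnb1, the mitotic cyclin, 0.27 ± 0.23 (adjusted p = 0.563), Aurkb, the kinase of cytokinesis, 0.44 ± 0.24 (adjusted p = 0.351), and Anln, the anillin of the cleavage furrow, 0.20 ± 0.20 (adjusted p = 0.649). A p that misses the threshold does not show that the responses were alike. Lig1 (0.69) was not called without the 3 libraries low in Y-linked reads.

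Most lists of inflammation genes, the process Chrna7 is best known for, held no call. The exceptions held 1 or 2 called genes each, against 2.74% of all genes tested. They were inflammatory monocytes and macrophages (8.33%), complement (6.67%), NF-kB (6.67%) and cytokines and chemokines (5.26%). The NF-kB call, 1 of 15 genes, was below 0 and held in all 16 fits without a library. None of 17 pan-leukocyte genes was called (median 0.03), and their median response was 0.74 in knockout and 0.75 in wild type. None of 22 resident macrophage genes, 15 neutrophil genes, 8 MHC class II genes or 25 interferon-stimulated genes was called. At a rate of 2.74%, lists of this size often hold no call, so their zeros do not set them apart from other genes. Of 24 genes of inflammatory monocytes and macrophages 2 were called above 0 (8.33%), Thbs1, a matrix glycoprotein that activates TGF-beta (1.15 ± 0.24, adjusted p = 0.0152), and Fabp5, a fatty acid carrier (0.82 ± 0.17, adjusted p = 0.0132), both also made by other cells. C3, the central complement protein, stood at 68.7, 271, 285 and 50.1 CPM in KO MI and 7.03, 7.57, 9.04 and 8.50 CPM in KO sham. WT MI had 86.3, 72.1, 120.1 and 19.7 CPM and WT sham 125, 43.5, 55.3 and 47.9 CPM. KO sham lay in a narrow band below all 12 other samples and KO MI split into 2 high and 2 lower samples. It rose in knockout by 4.40 ± 0.74 (adjusted p = 0.00298) with a response of 0.13 ± 0.62 (adjusted p = 0.948) in wild type, and the interaction of 4.26 ± 0.96 (adjusted p = 0.0362) was not called without any one of KO MI 2 and 3, KO sham 1, 2, 3 and 4, WT MI 1 and 4, WT sham 1 and 3 (log2 3.79 to 4.35). Csf1, the growth factor of macrophages, was the one called gene of 19 cytokines and chemokines (-0.76 ± 0.15, adjusted p = 0.0101). Spp1, the osteopontin of healing tissue, rose in each genotype, by 5.77 ± 0.85 (adjusted p = 0.00129) in knockout and 4.66 ± 0.92 (adjusted p = 0.0224) in wild type, and its interaction was 1.11 ± 1.56 (adjusted p = 0.758). Arg1, the arginase of reparative macrophages, stood at 51.7 ± 67.8 CPM in KO MI and 0.384 ± 0.113 CPM in KO sham, against 4.34 ± 2.41 CPM in WT MI and 0.440 ± 0.191 CPM in WT sham (SD, n = 4 each). KO MI varied from 4.32 to 152 CPM, and the interaction was 3.77 ± 2.80 (adjusted p = 0.519). Il1b had -0.66 ± 0.96 (adjusted p = 0.764). Tnf (43 counts in all of KO MI and 21 in KO sham, against 19 in WT MI and 22 in WT sham), Il6 (27 and 2, against 34 and 7) and Il10 (3 and 0, against 1 and 2) were too low to be tested. Of 15 tested genes of the cholinergic system none was called (median -0.24). C3 (3.84), Thbs1 (0.95) and Csf1 (-0.70) were not called with the atrial index as covariate. C3 (4.02) and Thbs1 (1.01) were not called without the 3 libraries low in Y-linked reads. C3 (4.19) was not called with the Y-linked index as covariate.

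Slc16a3, the lactate exporter, was the one called of 31 glycolysis and hypoxia genes (3.23%, near the 2.74% of all genes tested). Its interaction was 1.15 ± 0.28 (adjusted p = 0.0302), not called without any one of KO MI 2 and 3, KO sham 1, 2, 3 and 4, WT MI 4, WT sham 3 (log2 1.03 to 1.21). Bhlhe40, a hypoxia-induced clock repressor, had 0.85 ± 0.17 (adjusted p = 0.0116), and the clock repressor Nr1d1 -0.66 ± 0.17 (adjusted p = 0.0414), not called without any one of KO MI 2, KO sham 1, 2, 3 and 4, WT MI 3 and 4, WT sham 1, 3 and 4 (log2 -0.68 to -0.59); with Per1 they made 3 called genes of 19 in the circadian list (15.8%), whose median was -0.16. Psat1, an enzyme of serine synthesis, had 1.02 ± 0.25 (adjusted p = 0.0302), not called without any one of KO MI 2, KO sham 1, 2 and 4, WT MI 1, 3 and 4, WT sham 1 and 3 (log2 0.91 to 1.06), and was 1 of 2 called among 26 genes of the amino acid stress response (7.69%, against 2.74% of all genes tested). The kinase Rock1, which tenses actin filaments, had -0.53 ± 0.14 (adjusted p = 0.0427), not called without any one of KO MI 2 and 3, KO sham 1, 2 and 4, WT MI 1, 3 and 4, WT sham 2, 3 and 4 (log2 -0.55 to -0.48). Of the mitochondrially encoded genes mt-Nd5, a subunit of complex I, was called (-0.86 ± 0.19, adjusted p = 0.0189, 1 of 13 or 7.69%). Another, mt-Nd3, was higher in knockout after both surgeries, at 38.2 ± 5.44 CPM in KO MI and 36.4 ± 5.96 CPM in KO sham, against 6.75 ± 1.23 CPM in WT MI and 6.56 ± 1.56 CPM in WT sham (SD, n = 4 each), and its interaction was 0.04 ± 0.24 (adjusted p = 0.95). The insulin-degrading enzyme gene Ide (-0.97 ± 0.28, adjusted p = 0.0794) and Zbtb16, a factor induced by glucocorticoids (-1.82 ± 0.68, adjusted p = 0.169), did not pass. The Y-linked genes had interactions of -0.89 (Ddx3y), -0.60 (Eif2s3y), -0.80 (Kdm5d) and -0.67 (Uty), none called. Nr1d1 (-0.44), Rock1 (-0.59), Psat1 (1.02), mt-Nd5 (-0.95) and Slc16a3 (1.25) were not called with the atrial index as covariate. Nr1d1 (-0.63) and mt-Nd5 (-0.84) were not called without the 3 libraries low in Y-linked reads. Rock1 (-0.32) was not called with the length and GC correction. Nr1d1 (-0.64) was not called with all libraries thinned to the smallest total. Slc16a3 (1.15) was not called with the replicate number as a block. Nr1d1 (-0.66) was not called with the Y-linked index as covariate.

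**Figure D5:**
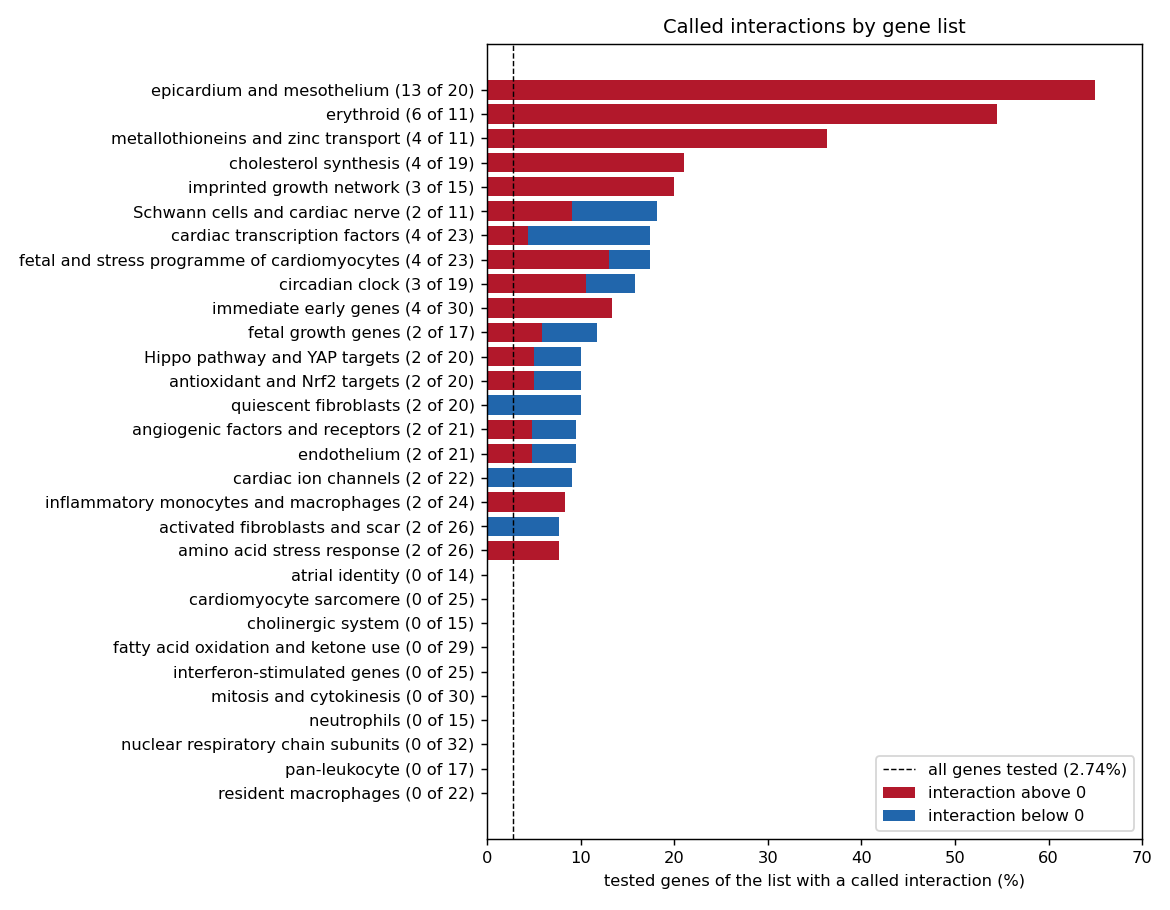
Percent of tested genes with a called interaction for lists of at least 10 tested genes with 2 or more calls, and for lists named in the text with none; red bars are interactions above 0, blue bars below 0, and the dashed line is the 2.74% of all genes tested. Epicardium and mesothelium (65%) and erythroid genes (54.5%) have the longest bars, and pan-leukocyte, resident macrophage, neutrophil and cholinergic lists have none.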

How the data were processed

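The deposited table holds raw HTSeq read counts per gene for all 16 samples, 22468 genes, of which 22362 matched a symbol in the gene names used here. Transcript lengths and GC content, used for the length medians and the length and GC correction, came from the GENCODE annotation. The authors' reads were aligned to GRCm39, per the submitters' processing notes, which name HISAT2 2.2.1, HTSeq 0.13.5, cutadapt 3.4, bcl2fastq 2.17, DESeq2 and FastQC. The strand setting and annotation release are not given in the sources used here, so reads of overlapping and antisense genes may be mixed.

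Genes passing filterByExpr were fitted with TMM scaling and edgeR 4.0.16's robust quasi-likelihood test (R 4.3.3), on a design of 4 group means (12 residual degrees of freedom), with Benjamini-Hochberg adjustment over all genes tested. Values after ± are standard errors of log2 contrasts, or SDs where stated. A gene was called at an adjusted p under 0.05. A floor of 3 counts is 0.179 to 0.290 CPM, for counting error only. Alternatives used DESeq2 1.42.0, limma 3.58.1 (voom with quality weights), other scalings, filters, covariates and left-out libraries. The test was checked on simulated data.

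Named genes were called genes averaging at least 2 CPM in a group: the 10 largest and 10 smallest-p in each direction, the 6 smallest-p with opposite called responses, up to 4 per list, and fixed genes. All called mesothelial and erythroid genes are named as well. The members and lists were chosen with earlier results of these data known. Same-numbered replicates were checked for pairing and not treated as pairs. Some genes that meet the rule are not reported here.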

Additional observations from a re-analysis of the deposited data

Results flagged for a closer look

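Single samples stood apart from the rest of their group in 10 of 136 groups of 4 examined, all of genes chosen for their interactions. Dixon's 95% limit, which was used, is passed by chance in about 1 in 20 groups of independent normal values. In sham surgery of wild type they were Msln (43.9 CPM, high), C3 (125 CPM, high), Atf3 (23.8 CPM, high) and Tnni1 (858 CPM, low) in WT sham 1, Dlk1 in WT sham 2 (32.0 CPM, high) and Tmem151a in WT sham 4 (2.80 CPM, low). The others were Igfbp6 in WT MI 4 (6.18 CPM, low), Dlk1 in WT MI 4 (13.5 CPM, high), Upk1b in KO sham 4 (0.160 CPM, low) and Hba-a1 in KO MI 3 (678 CPM, high).

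The response to infarction differed between the genotypes, by the interaction term, for 368 genes, and the named ones follow with their log2 interactions. Above 0 they were largest for Lrrn4 (4.92), Upk3b (4.79), Dmkn (4.71), Muc16 (4.60), Bnc1 (4.30), C3 (4.26), Upk1b (4.24), Tmem151a (3.86), Msln (3.60), Lgals7 (3.54), Nr4a1 (3.41), Nr4a3 (3.16), Rspo1 (2.76) and Plaur (2.12). Next came Slc39a8 (2.10), Mt2 (2.07), Igfbp6 (1.89), Per1 (1.85), Arid5a (1.73), Atf3 (1.67), Hba-a2 (1.62), Hbb-bt (1.57), Tnni1 (1.57), Krt19 (1.53), Hba-a1 (1.48), Dlk1 (1.42), Cdr2 (1.31) and Maff (1.31). Below these lay Ptgds (1.29), Myl9 (1.25), Slc3a2 (1.23), Krt8 (1.23), Krt18 (1.20), Olfml2b (1.17), Hbb-bs (1.16), Thbs1 (1.15), Slc16a3 (1.15), Alas2 (1.11), Apln (1.03), Psat1 (1.02) and Mt3 (0.98). Then followed Mt1 (0.97), Wt1 (0.96), Spon2 (0.91), Cyp51 (0.86), Mest (0.86), Bhlhe40 (0.85), Fabp5 (0.82), Cldn5 (0.80), Hand2 (0.79), Tagln (0.78), Insig1 (0.70), Lig1 (0.69) and Plagl1 (0.69). The smallest above 0 were Srebf2 (0.66), Bpgm (0.60) and Rps19 (0.54). Below 0 the lowest were Olfr78 (-1.97), Tnfsf10 (-1.97), Galnt15 (-1.91), Rasgrf2 (-1.75), Col28a1 (-1.70), Gipc3 (-1.61), Col8a1 (-1.54), Rasa4 (-1.51), Prdm1 (-1.49), Cilp (-1.43), Aplnr (-1.37), Irx3 (-1.30), Xirp2 (-1.21) and Abi3bp (-1.18). The other genes below 0 were Fitm2 (-1.15), Sema7a (-1.06), Dusp7 (-1.02), Irx5 (-0.96), Fam43a (-0.96), Hcn2 (-0.94), Sp100 (-0.94), mt-Nd5 (-0.86), Csf1 (-0.76), Ly6c1 (-0.75), Tbx2 (-0.72), Htra3 (-0.71) and Nr1d1 (-0.66). Closest to 0 were Rock1 (-0.53) and Smoc2 (-0.50).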

How the results depend on the processing

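The interaction was called for 628 genes with DESeq2, 1524 with limma voom, 112 with the atrial index as covariate, 217 without the 3 libraries low in Y-linked reads (71.9% above 0, against 60.1%), and 178 to 817 when 1 library was left out. The share above 0 was 50.2% with limma voom. The knockout response had 4796 genes with limma voom, 1291 without the 3 libraries and 1230 to 2931 with 1 library left out. The wild-type response had 511 with DESeq2, 495 with limma voom, 197 with the atrial index, 166 without the 3 libraries and 86 to 565 with 1 left out. Between genotypes, 10 genes were called after infarction with DESeq2, 1 without haemoglobin and mitochondrial genes, 1 without the 3 libraries and 1 to 4 with 1 left out, and after sham 3901 with limma voom, 842 with the atrial index, 1237 without the 3 libraries and 1298 to 2881 with 1 left out. The mesothelial list had 7 called at a mean of at least 50 counts, 1 with the atrial index and 6 to 13 with 1 library left out. The first of these settings left Lrrn4, Upk1b, Dmkn, Muc16 and Bnc1 untested. The erythroid list had 2 without haemoglobin genes, which that alternative removes. Immediate early genes had 8 with limma voom, 1 with the atrial index and 2 without the 3 libraries, and metallothioneins 2 with the atrial index. Except where a setting took the genes themselves out of the test, the cause was not tested.

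Among the genes named in the text, the signs that reversed were all of uncalled genes. They were mt-Nd3 with limma voom (-0.104), Nppb (-0.019) and Sln (-0.345) with the atrial index, and Eif2s3y (0.081) and Uty (0.122) with the Y-linked index. With 1 library left out, mt-Nd3 ranged from -0.087 to 0.18, Nppb from -0.039 to 0.394, Mki67 from -0.027 to 0.214 and Il1b from -0.947 to 0.497. Deviations of same-numbered samples correlated at r from -0.097 to 0.475 (24 pairs, median 0.011) and those of differently numbered ones at -0.326 to 0.210 (72 pairs, median -0.006), so not every same-numbered pair deviated together. With the replicate number as a block 350 genes were called, 308 of them among the 368.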
